A study of Homo sapiens with 372 samples.

Results

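The genes described here encode the cytoplasmic intermediate filament proteins VIM, KRT8, KRT18 and KRT10 and the nuclear lamins LMNA, LMNB1 and LMNB2. They were chosen by name, and 6 of the 7 were among the 9664 genes measured, while KRT8 was not analysed here. RNA of single A2780 cells, an established human ovarian cancer line, was sequenced over its full length (Smart-seq2) after capture on the Fluidigm C1 chip. The 6 conditions were control cells with no drug named (46 cells), paclitaxel at 5 nM for 16 h (56 cells) or 48 h (53 cells), celecoxib at 75 µM for 2 h (63 cells) or 16 h (61 cells), and the combination of both drugs at these doses for 16 h (59 cells), in all 338 of 372 labelled cells. All cells were grown adherent in plates and released with trypsin before capture. The labels name no separate cultures or captures within a condition, so each condition counts as 1 sample, since cells are not replicates. No condition was therefore tested against another, every SD is a spread over cells, and a condition and the handling its cells shared cannot be told apart.

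Intermediate filaments are ropes of coiled-coil proteins. Vimentin (VIM) forms the filaments of mesenchymal cells and of many cultured carcinoma lines, whereas keratins assemble as pairs of a type I chain (KRT18, KRT10) and a type II chain (KRT8 is the partner of KRT18), KRT18 in simple epithelia and KRT10 in the upper epidermis. Lamins are the filaments beneath the inner nuclear membrane. LMNA gives the A-type lamins and LMNB1 and LMNB2 the B-type lamins, which stay attached to the membrane through a farnesyl group. In mitosis the CDK1 kinase phosphorylates lamins and vimentin, and their filaments come apart. Paclitaxel stabilizes microtubules, to which vimentin filaments are linked in the cell, and celecoxib inhibits cyclooxygenases.

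Levels are E-values, that is log2(N/10 + 1), with N standing for the TPM of a gene after the authors scaled it to the most abundant spike-in RNA of its cell. TPM counts per transcript length, so levels of different genes can be compared. A gene was detected in a cell when its E-value was above 0. The cells had between 4746 and 8499 genes detected, with medians per condition between 6125.5 and 6630, and their reads per cell are unknown. The median log2 total of N relative to control was -0.99 at 16 h and -0.64 at 48 h in paclitaxel, -0.76 at 2 h and -1.52 at 16 h in celecoxib, and 0.49 with the combination, so that most genes move with the total. Each difference is therefore given on the spike-in scale and again after every cell was set to the same total, and it is called past the limit when the mean E-values differ by over log2 of 1.5 (0.58). On the spike-in scale the median difference from control over all genes was -0.41, -0.26, -0.26, -0.48 and 0.33 in the order of treatments above, and at the same total it lay between -0.07 and 0.03. The labels number the libraries, and cells fall into 4 blocks of 96 numbers. Control cells were all in block 4, paclitaxel 16 h in block 1, celecoxib 2 h in block 2 and celecoxib 16 h in block 3, whereas the cells of paclitaxel 48 h (22 in block 2, 31 in block 4) and of the combination (34 in block 1, 25 in block 3) came from 2 blocks each. Of the markers of other cell types, 0 of 6 leukocyte and 0 of 4 endothelial genes were among the genes measured, as were 4 of 7 fibroblast, 2 of 14 epithelial (CLDN7, OCLN) and 0 of 9 Müllerian genes. Both defining epithelial markers EPCAM and CDH1 and the Müllerian marker PAX8 were thus not analysed here, and the ovarian label could not be checked against them.

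The 250 bases before the annotated start of 4 of the members are shown, because VIM and KRT10 were past the limit in most comparisons with control on the spike-in scale and the B-type lamins were lower than control after celecoxib for 16 h on both scales. They are from RefSeq on GRCh38.p14, the build of hg38 used by the authors, and 6 of the 7 genes had an entry. Both strands were searched for 4 short motifs. The TATA box, with the letters TATAAA, is present in 10.7% of all 35116 promoters of this length. The CCAAT box is present in 32.0% of them and the GC box, with the letters GGGCGG, in 42.6%. The cell cycle homology region, with the letters TTTGAA, is present in 13.3%. Capitals mark the matches, and those on the other strand appear as the reverse complement. The VIM stretch lies on the plus strand at chr10:17227991-17228240, that of KRT10 on the minus strand at chr17:40822615-40822864, that of LMNB1 on the plus strand at chr5:126776886-126777135 (before the second of its starts) and that of LMNB2 on the minus strand at chr19:2456960-2457209.
VIM: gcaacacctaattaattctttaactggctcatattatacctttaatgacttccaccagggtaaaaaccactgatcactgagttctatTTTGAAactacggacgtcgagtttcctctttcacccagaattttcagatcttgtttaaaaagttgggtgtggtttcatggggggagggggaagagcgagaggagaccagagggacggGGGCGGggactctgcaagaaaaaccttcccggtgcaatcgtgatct
KRT10: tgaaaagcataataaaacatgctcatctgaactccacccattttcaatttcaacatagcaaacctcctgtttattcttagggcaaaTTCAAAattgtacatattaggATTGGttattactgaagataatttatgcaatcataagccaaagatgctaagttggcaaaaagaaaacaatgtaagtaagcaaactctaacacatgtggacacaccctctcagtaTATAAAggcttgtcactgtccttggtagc
LMNB1: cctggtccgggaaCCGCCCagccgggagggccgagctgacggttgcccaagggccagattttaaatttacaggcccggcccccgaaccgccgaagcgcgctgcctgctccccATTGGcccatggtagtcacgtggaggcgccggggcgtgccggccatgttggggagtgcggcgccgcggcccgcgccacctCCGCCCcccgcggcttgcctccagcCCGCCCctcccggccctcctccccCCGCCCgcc
LMNB2: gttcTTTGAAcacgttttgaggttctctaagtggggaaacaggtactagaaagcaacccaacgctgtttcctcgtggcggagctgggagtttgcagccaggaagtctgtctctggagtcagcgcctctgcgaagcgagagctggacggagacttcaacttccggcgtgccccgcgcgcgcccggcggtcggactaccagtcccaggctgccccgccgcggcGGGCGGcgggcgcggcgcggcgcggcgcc
KRT10 had the only TATA box of the 4, 29 bases before its start, with a CCAAT box on the other strand 143 bases before it. VIM and LMNB2 had 1 GC box each, 46 and 29 bases before the start, and LMNB1 had 4 on the other strand, 9, 33, 58 and 237 bases before it, with a CCAAT box at 138. The cell cycle homology region was found in VIM, KRT10 and LMNB2, 163, 164 and 246 bases before the start. The stretch before the first LMNB1 start, further upstream, held none of the motifs. A match is only a match of letters.

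The largest differences from control were those of VIM at 16 h in paclitaxel and in celecoxib, on both scales, and KRT10 was below control past the limit in all 4 single-drug conditions on the spike-in scale. After 16 h in paclitaxel 3 of the 6 members were lower past the limit (VIM, KRT10 and LMNA), where 37.3% of all 9655 genes tested were, and at the same total 1 was (VIM), against 10% of all genes. After 48 h in paclitaxel KRT10 was the 1 member lower past the limit on both scales, beside 26.6% of all genes on the spike-in scale and 5.78% at the same total. After 2 h in celecoxib VIM and KRT10 were lower past the limit on the spike-in scale, 2 of 6 beside 25.7% of all genes, and at the same total 0 members were, beside 8.12%. After 16 h in celecoxib 5 of 6 (all but KRT18) were lower past the limit on the spike-in scale, beside 43.9% of all genes, and at the same total 1 of 6 (VIM), beside 7.95%. With the combination 0 of 6 were past the limit on the spike-in scale, beside 30.4% of all genes higher and 1.76% lower, and at the same total VIM was lower, 1 of 6 beside 5.8%. No member was higher than control past the limit in any treatment on either scale. Of all genes 0.0932, 0.922, 1.12, 0.383 and 30.4% were so on the spike-in scale, in the order of treatments above, and 1.4, 3.28, 3.31, 7.37 and 5.96% at the same total. The median difference of the 6 members was -0.74, -0.38, -0.29, -0.75 and 0.18 on the spike-in scale, in the order of treatments above, and -0.29, -0.01, -0.10, -0.11 and -0.22 at the same total. All 5 differences share the same control cells.

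**Figure D1:**
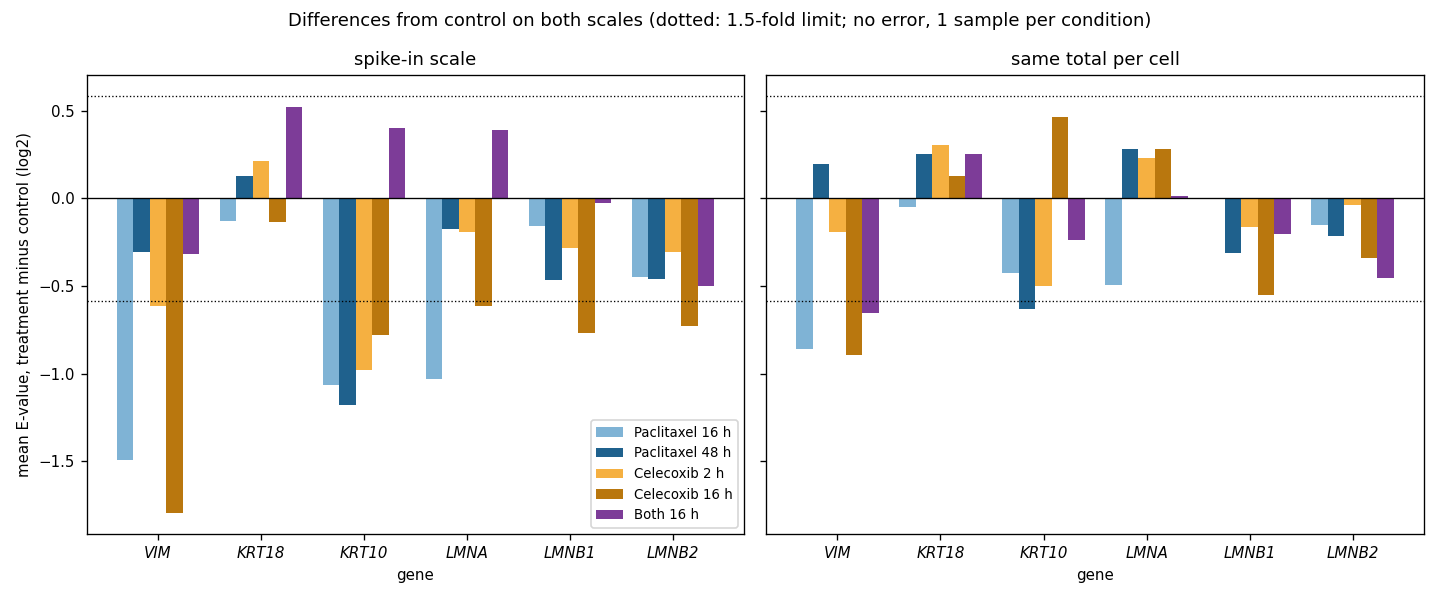
Difference in mean E-value from control (log2, y axis) for each member (x axis) and treatment (colour), on the spike-in scale (left) and at the same total per cell (right), with the 1.5-fold limit dotted. VIM was below the limit at 16 h in paclitaxel and of celecoxib on both scales, and KRT10 and LMNA after celecoxib for 16 h were below 0 on the left and above 0 on the right.

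VIM (ENSG00000026025.15, chromosome 10, 17228241 to 17237593, plus strand, hg38) was high in some cells and undetected in others of every condition. In control cells its E-value ran from 0 over a median of 4.35 to 8.12, with a mean of 3.70 ± 2.45 (SD over 46 cells). After paclitaxel it ran from 0 over 2.06 to 6.53 at 16 h (mean 2.21 ± 2.19) and from 0 over 3.51 to 7.59 at 48 h (mean 3.39 ± 2.37). The conditions overlapped over nearly their whole range, and what differed was the share of cells near 0 and the level of the others. After celecoxib VIM ran from 0 over 3.36 to 7.42 at 2 h (mean 3.09 ± 2.11) and from 0 over 1.86 to 6.73 at 16 h (mean 1.90 ± 1.83). With the combination it ran from 0 over 4.02 to 7.67 (mean 3.38 ± 2.69), the widest spread of the 6 conditions. VIM was detected in 76.1% of control cells (35 of 46, exact 95% interval 61.2 to 87.4%), in 62.5% (48.5 to 75.1%) and 86.8% (74.7 to 94.5%) at 16 and 48 h in paclitaxel, in 79.4% and 72.1% at 2 and 16 h in celecoxib, and in 67.8% with the combination. These intervals cover counting error only. Among the cells in which it was detected the median was 5.00 in control, 3.27 and 3.94 after paclitaxel, 3.60 and 2.77 after celecoxib and 4.96 with the combination, and at the same total 4.06, 3.51, 4.22, 3.73, 3.26 and 3.71.

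**Figure D2:**
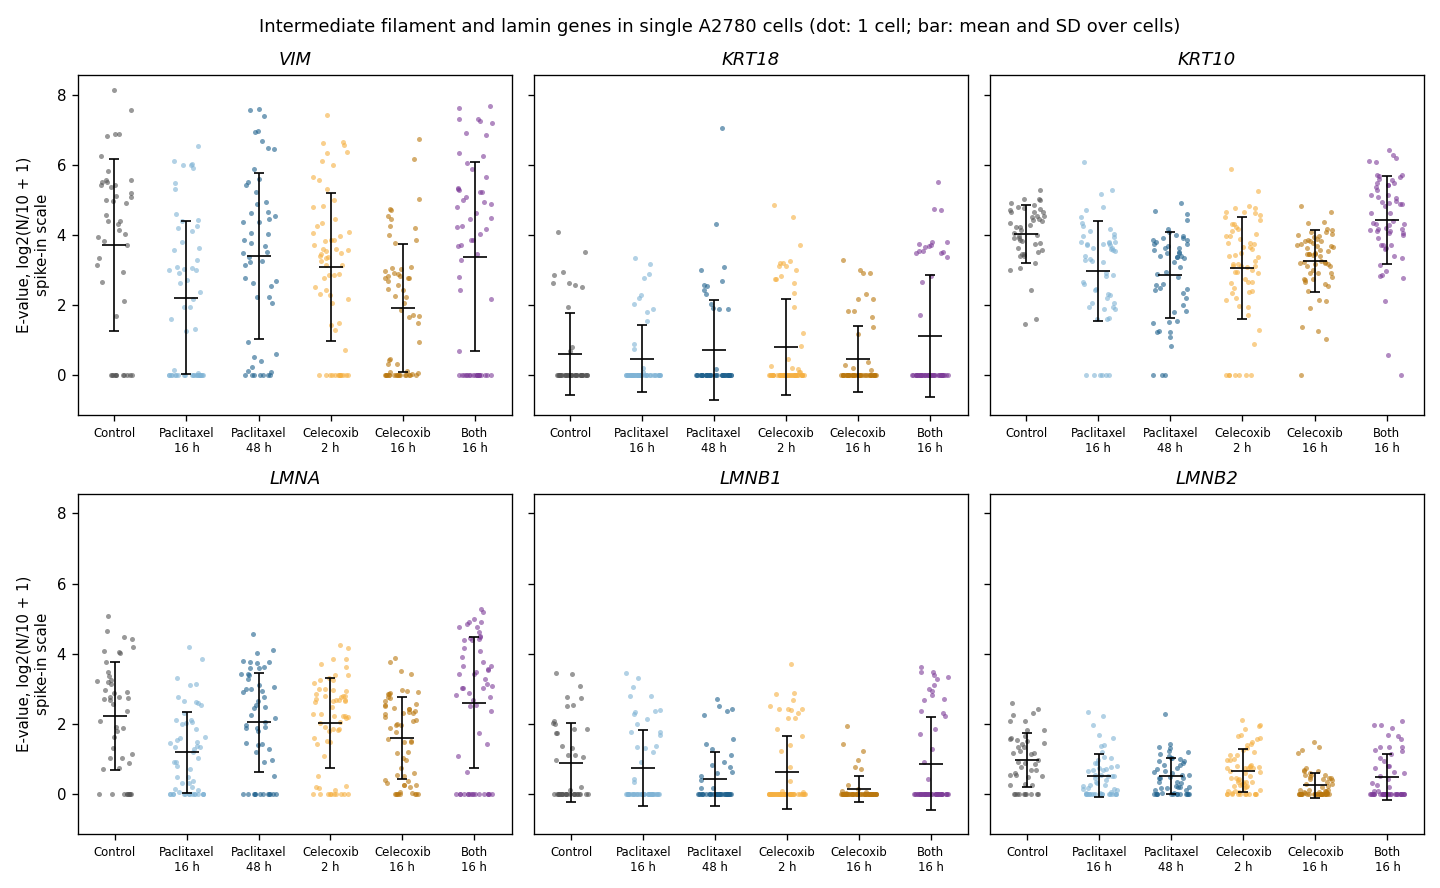
E-value on the spike-in scale (y axis) of each cell (dot) for the 6 members by condition (x axis), with the mean and SD over cells. VIM had cells at 0 and cells above 6 in all 6 conditions, KRT10 was above 0 in at least 88.9% of cells, and most cells were at 0 for KRT18 and LMNB1.

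The VIM difference from control was -1.49 at 16 h in paclitaxel and -0.86 at the same total, the 324th lowest of the 9655 genes. At 48 h in paclitaxel it was -0.31 on the spike-in scale and turned to 0.20 at the same total. After celecoxib it was -0.61 at 2 h and -1.80 at 16 h, and at the same total -0.19 and -0.89, the latter the 286th lowest of all genes. With the combination it was -0.32, and -0.65 at the same total, the 418th lowest. VIM thus stood below the median of all genes at 16 h in each drug and of both, whichever scale was used. Within a condition its E-value had almost no relation to the total of the cell, with Pearson's r between -0.12 and 0.21, whereas r was between 0.14 and 0.60 for KRT10 and between 0.12 and 0.59 for LMNA, each over the 46 to 63 cells of a condition, which share its handling.

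In the 2 conditions spread over 2 number blocks the VIM mean differed between the blocks. The labels do not say what a block stands for. After 48 h in paclitaxel the 22 cells of block 2 had a mean of 4.22 ± 2.25 with VIM detected in 95.5%, and the 31 cells of block 4 a mean of 2.81 ± 2.32 with 80.6% detected. The difference of 1.41 (1.54 at the same total) was the 16th largest of 9655 genes in size (3rd at the same total), and the block mean was 0.52 above the control mean in block 2 and 0.89 below it in block 4, which is also the block of the control cells. With the combination the 34 cells of block 1 had a mean of 2.82 ± 2.63 and the 25 cells of block 3 a mean of 4.14 ± 2.64, with VIM detected in 61.8% and 76.0%. This difference of -1.33 (-1.23 at the same total) was the 26th largest in size (5th at the same total), and at the same total block 1 was at -1.17 and block 3 at 0.06 relative to control. Over all genes 11.5% and 12.9% differed past the limit between the blocks of these 2 conditions, and 8.28% and 5.63% at the same total. At the same total both block differences exceeded the span of 1.09 between the highest and the lowest condition mean of VIM. No other member differed past the limit between blocks, except LMNA with the combination on the spike-in scale (-0.65, and -0.56 at the same total). The part of the block in the VIM differences between conditions was not tested.

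**Figure D3:**
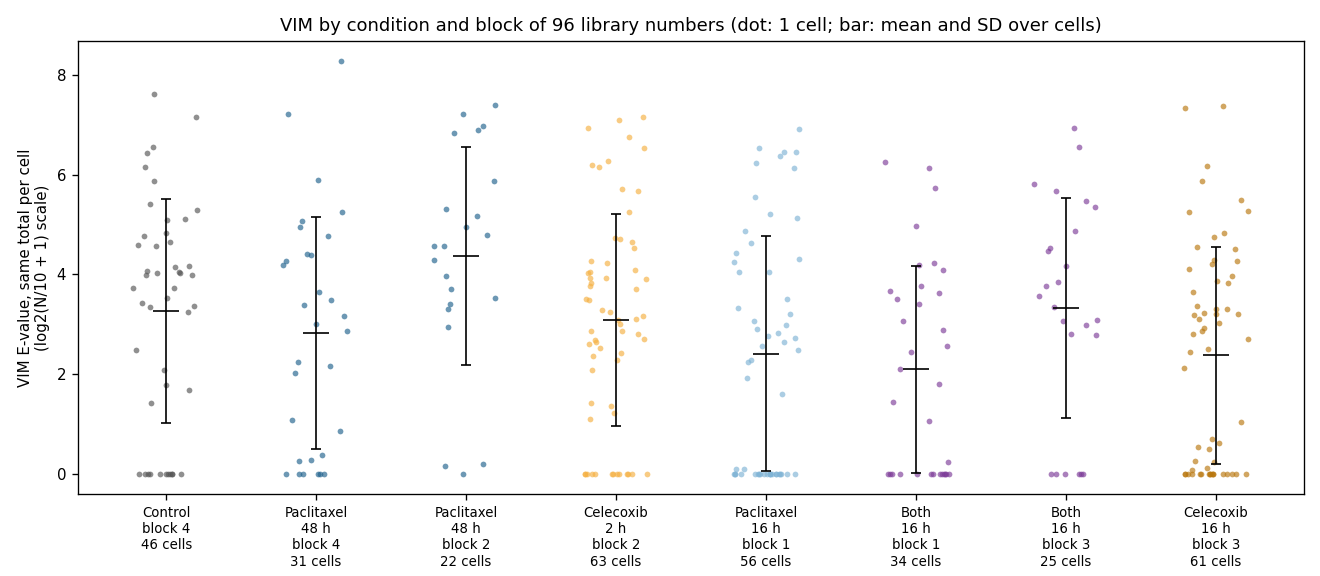
VIM E-value at the same total per cell (y axis) of each cell (dot) by condition and block of 96 library numbers (x axis), with the mean and SD over cells. After 48 h in paclitaxel the mean was 4.37 in block 2 and 2.82 in block 4, and with the combination 2.09 in block 1 and 3.32 in block 3.

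The gene most like VIM over the 338 cells, at the same total and with each condition centred on its mean, was RSU1 (Ras suppressor 1, an adhesion protein) with r = 0.37, from 0.15 to 0.54 within the conditions. TMSB10 (thymosin beta 10, which binds actin) followed with 0.27 and UCHL1 (a ubiquitin hydrolase) with 0.25, among 7570 genes compared, and the fourth gene had 0.23. RSU1 is also a neighbour of VIM, on chromosome 10 from 16590611 to 16817463 on the minus strand, 411 kb before VIM. Of the other 9 genes measured within 2 Mb on either side, TRDMT1 at 26.2 kb had r = 0.11, HACD1 0.15 and PTER -0.09, and none was above 0.15. RSU1 was lower than control by 1.82, 1.38, 1.41 and 1.75 in the 4 single-drug conditions and differed by -0.05 with the combination, and at the same total by -1.23, -0.87, -0.99, -0.66 and -0.61. VIM overlaps the antisense gene VIM-AS1 by 1778 bases, and since the counting is not stated to use strand, reads of the overlap cannot be told apart.

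KRT18 (ENSG00000111057.10, chromosome 12, 52948871 to 52952906, plus strand), the type I keratin of simple epithelia, was at 0 in most cells of each condition. It entered the table only through celecoxib 2 h, with 36.5% of cells detected (23 of 63), and the combination, with 30.5% (18 of 59). In the other conditions it was detected in 23.9% of control cells, 25.0% and 26.4% after paclitaxel and 26.2% after 16 h in celecoxib. Its highest E-value was 4.07 in control, 3.34 and 7.06 at 16 and 48 h in paclitaxel, 4.85 and 3.27 at 2 and 16 h in celecoxib, and 5.52 with the combination. The means were 0.59 ± 1.17, 0.46 ± 0.95, 0.71 ± 1.43, 0.80 ± 1.38, 0.45 ± 0.93 and 1.11 ± 1.74 in the same order, so the spread over cells exceeded the mean in every condition. No difference from control passed the limit, the range being -0.14 to 0.52 on the spike-in scale and -0.05 to 0.30 at the same total. The control mean was 0.47 at the same total, so a fall past the limit was impossible there. On the spike-in scale it was possible only if almost every treated cell were at 0. A single cell carried much of the level at 48 h in paclitaxel, since the mean N was 37.9 with it and 13.1 without it, beside 13.7 in control. Among cells with KRT18 detected the median was 2.61 in control, 1.95 and 2.49 after paclitaxel, 2.74 and 1.83 after celecoxib and 3.60 with the combination, and at the same total 2.09, 1.86, 2.31, 2.35, 2.52 and 2.54. Its values are uncertain, because the genes for KRT18 and KRT8 have many processed copies in the genome that can share reads, and because KRT18 overlaps KRT8 on the other strand by 1084 bases.

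KRT10 (ENSG00000186395.7, chromosome 17, 40818117 to 40822614, minus strand), a type I keratin of the differentiating epidermis, was the member detected in most cells, with 100% of control cells and between 88.9 and 98.4% of the treated ones. In control cells it ran from 1.46 over a median of 4.18 to 5.29 (mean 4.03 ± 0.83), the highest mean E-value of the 6 members in those cells. VIM had the higher control median E-value, at 4.35, and the higher control mean N, at 354 against 176 for KRT10. After paclitaxel KRT10 ran from 0 over 3.28 to 6.08 at 16 h (mean 2.96 ± 1.43) and from 0 over 3.32 to 4.92 at 48 h (mean 2.85 ± 1.24). After celecoxib it ran from 0 over 3.18 to 5.87 at 2 h (mean 3.04 ± 1.45) and from 0 over 3.45 to 4.83 at 16 h (mean 3.25 ± 0.88). The single-drug cells overlapped the range of control cells, and each of these conditions had cells at 0, which control lacked. With the combination KRT10 ran from 0 over 4.39 to 6.41 (mean 4.43 ± 1.26). Against control it differed by -1.07 and -1.18 at 16 and 48 h in paclitaxel and by -0.43 and -0.63 at the same total. After celecoxib it was lower by 0.98 at 2 h, and at the same total by 0.50, whereas at 16 h it was lower by 0.78 on the spike-in scale but higher by 0.46 at the same total. With the combination it was higher by 0.40 on the spike-in scale and lower by 0.24 at the same total.

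KRT10 also shares sequence with its neighbour. It overlaps TMEM99, now annotated as KRT10-AS1 on the opposite strand, by 3514 bases, and reads of the overlap cannot be told apart without strand. TMEM99 was among the 3 genes most like KRT10 over the 338 cells (r = 0.24), as was GTF3A (the transcription factor of 5S RNA genes, 0.27). At the same total TMEM99 was higher than control by 1.10 after 16 h in celecoxib and by 0.62 with the combination, and on the spike-in scale by 0.60 and 1.15. The part of the overlap in the KRT10 values was not tested.

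LMNA (ENSG00000160789.19, chromosome 1, 156082573 to 156140081, plus strand) was the lamin with the highest level. In control cells it ran from 0 over a median of 2.61 to 5.08 (mean 2.21 ± 1.54), with 80.4% of cells detected. After paclitaxel it ran from 0 over 0.96 to 4.20 at 16 h (mean 1.18 ± 1.16, 73.2% detected) and from 0 over 2.16 to 4.57 at 48 h (mean 2.03 ± 1.42, 77.4% detected). The positive cells had a median of 1.46 at 16 h in paclitaxel, against 2.77 in control, on the spike-in scale, and of 1.62 against 2.16 at the same total. After celecoxib LMNA ran from 0 over 2.23 to 4.23 at 2 h (mean 2.02 ± 1.27) and from 0 over 1.89 to 3.89 at 16 h (mean 1.59 ± 1.17), with 84.1 and 86.9% of cells detected. With the combination it ran from 0 over 3.03 to 5.26 (mean 2.60 ± 1.86), with 72.9% detected and a median of 3.55 among positive cells (2.54 at the same total). The difference from control at 16 h in paclitaxel was -1.03 on the spike-in scale and -0.49 at the same total. In the other treatments the sign depended on the scale or the value was near 0 at the same total, with -0.18, -0.19, -0.62 and 0.39 on the spike-in scale and 0.28, 0.23, 0.28 and 0.02 at the same total for paclitaxel 48 h, celecoxib 2 h, celecoxib 16 h and the combination. The genes most like LMNA were SEPHS2 (selenophosphate synthesis, r = 0.25), RHOC (a small GTPase, 0.24) and MSRB1 (methionine sulfoxide reduction, 0.24).

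LMNB1 (ENSG00000113368.11, chromosome 5, 126776623 to 126837020, plus strand) and LMNB2 (ENSG00000176619.12, chromosome 19, 2427638 to 2456959, minus strand) had low levels and their lowest means after 16 h in celecoxib on the spike-in scale, and at the same total the lowest LMNB1 mean was there and the lowest LMNB2 mean with the combination. LMNB1 had a median of 0 in every condition. It was detected in 47.8% of control cells (22 of 46, interval 32.9 to 63.1%), in 37.5 and 34.0% at 16 and 48 h in paclitaxel, in 31.7% at 2 h in celecoxib, in 18.0% at 16 h (11 of 61, 9.36 to 30.0%) and in 33.9% with the combination. Its highest E-value was 3.44 in control, 3.45 and 2.71 after paclitaxel, 3.69 at 2 h and 1.92 at 16 h in celecoxib, and 3.63 with the combination, and the means were 0.89 ± 1.13, 0.73 ± 1.09, 0.43 ± 0.77, 0.61 ± 1.05, 0.12 ± 0.37 and 0.86 ± 1.32. Celecoxib at 16 h was thus the condition with both the fewest positive cells and the lowest highest cell. The mean N was 16.2 in control and 1.39 after 16 h in celecoxib, and LMNB1 differed from control by -0.77, and by -0.55 at the same total, just inside the limit. At 48 h in paclitaxel it was -0.46 and -0.31 at the same total, and in the other 3 treatments it lay between -0.28 and -0.03 on the spike-in scale and between -0.20 and 0.00 at the same total.

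LMNB2 was detected in more cells than LMNB1 but reached lower values. Its lowest, median and highest E-values were 0, 0.88 and 2.59 in control (mean 0.97 ± 0.77). They were 0, 0.31 and 2.33 at 16 h in paclitaxel (mean 0.52 ± 0.61) and 0, 0.45 and 2.27 at 48 h (mean 0.51 ± 0.51). After celecoxib they were 0, 0.49 and 2.09 at 2 h (mean 0.66 ± 0.60) and 0, 0.04 and 1.49 at 16 h (mean 0.24 ± 0.36). With the combination the median was at 0 and the highest cell at 2.07 (mean 0.47 ± 0.66). LMNB2 was the member whose mean was below control in all 5 treatments on both scales, by 0.45, 0.46, 0.31, 0.73 and 0.50 on the spike-in scale and by 0.15, 0.22, 0.04, 0.34 and 0.46 at the same total. Its control mean at the same total was 0.71, so no fall there could be larger than that. With the combination LMNB2 was the 231st lowest of the 9655 genes on the spike-in scale, where the median gene was higher than control. It was detected in 78.3% of control cells (63.6 to 89.1%), 69.6 and 75.5% after paclitaxel, 82.5% at 2 h and 54.1% at 16 h in celecoxib, and 45.8% with the combination (32.7 to 59.2%).

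**Figure D4:**
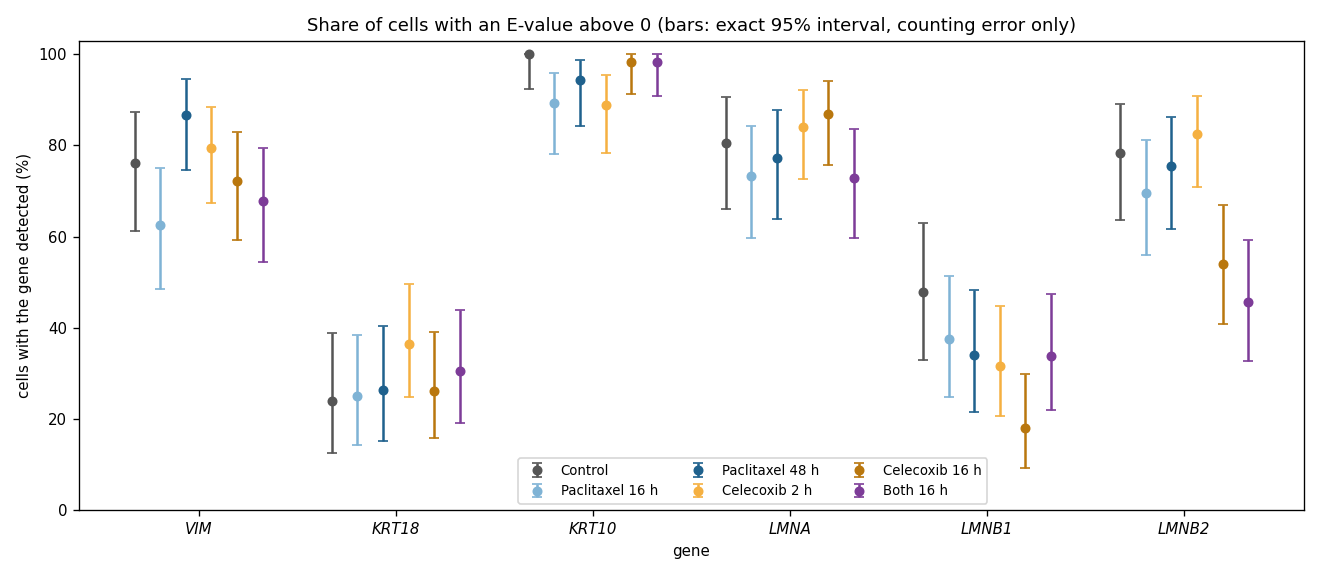
Share of cells with each member detected (y axis, percent) by gene (x axis) and condition (colour), with exact 95% intervals that cover counting error only. LMNB1 was at 18.0% of cells after 16 h in celecoxib, LMNB2 at 54.1% there and at 45.8% with the combination, and KRT10 at or above 88.9% throughout.

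The number of lamin genes found per cell was lower at 16 h with celecoxib present. All 3 lamins were detected in 14 of 46 control cells (30.4%), in 23.2 and 22.6% of cells after 16 and 48 h in paclitaxel and in 25.4% after 2 h in celecoxib. They were detected together in 4 of 61 cells (6.56%) after 16 h in celecoxib and in 6 of 59 (10.2%) with the combination, while the median number of genes detected per cell, of any kind, was 6329 and 6129 in these conditions and 6630 in control. Cells with no lamin detected were few, between 0 and 5 per condition. The median log2 ratio of LMNB1 to LMNA in a cell was -1.30 in control, -0.33 and -1.87 at 16 and 48 h in paclitaxel, -1.81 and -1.75 at 2 and 16 h in celecoxib, and -2.49 with the combination, with 10 added to N, and between -2.23 and -0.33 at the same total. The A-type lamin was thus above LMNB1 in the median cell of every condition, and least so at 16 h in paclitaxel, where LMNA was lowest. LMNB1 was at 0 in most cells of each condition, and in those cells the ratio holds only LMNA and the added 10. The quartiles in control were -2.70 and 0.00, so the conditions overlapped widely. The ratio of the mean N values was -2.03 in control and -4.48 on the log2 scale after 16 h in celecoxib, the lowest of the 6.

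**Figure D5:**
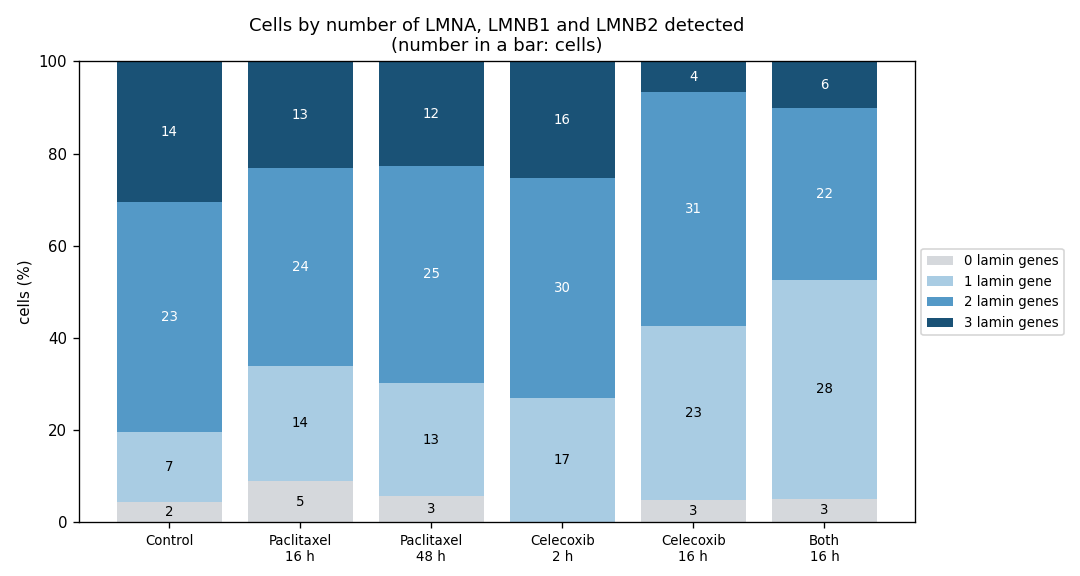
Percent of cells (y axis) with 0, 1, 2 or 3 of LMNA, LMNB1 and LMNB2 detected, by condition (x axis), with the number of cells in each bar. All 3 were detected in 14 control cells, 4 cells after 16 h in celecoxib and 6 cells with the combination.

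LMNB1 is known as a gene of proliferating cells. Among its 3 most alike genes were TRIP13 (a mitotic checkpoint ATPase) and CLSPN (replication checkpoint), with r of 0.27 and 0.26. Over the cells of a condition r of LMNB1 with the mean of 42 S phase genes was 0.06 in control, 0.36 and 0.30 after paclitaxel, 0.45 and 0.18 after celecoxib and 0.11 with the combination, and with the mean of 52 G2/M genes it lay between 0.04 and 0.35. Means of the S genes at the same total were 2.38 in control and between 1.71 (celecoxib 16 h) and 2.00 in the treatments, and those of the G2/M genes 2.68 and between 1.83 and 2.27, below control in all 5 treatments. Their part in the LMNB1 differences was not tested. The genes most like LMNB2 were UBE2Z, SAPCD2 and C1orf35 (each r = 0.21), and those most like KRT18 were MT1X (a metallothionein, 0.24), RYK (a Wnt receptor, 0.23) and CDC6 (replication licensing, 0.22). Between members themselves r was weak, from -0.25 to 0.33 over the 15 pairs in 6 conditions at the same total (median 0.01) and from -0.23 to 0.38 on the spike-in scale.

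The order of the condition means differed between members. On the spike-in scale VIM was highest in control, then paclitaxel 48 h, the combination, celecoxib 2 h, paclitaxel 16 h and celecoxib 16 h, while KRT10, LMNA and KRT18 were highest with the combination. At the same total VIM and LMNA were highest at 48 h in paclitaxel, KRT10 at 16 h in celecoxib, KRT18 at 2 h in celecoxib, LMNB1 at 16 h in paclitaxel and LMNB2 in control. The highest places of KRT18 lend no support, since it was measured only through celecoxib 2 h and the combination. No pair of neighbours in any of these orders differed by more than the SD over cells.

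Between the drug times, VIM was higher at 48 than at 16 h in paclitaxel by 1.18 (1.06 at the same total, the 44th highest of all genes) and LMNA by 0.85 (0.78). These 2 of 6 members were past the limit on both scales, beside 7.89% of all genes on the spike-in scale and 6.18% at the same total. With the cells of block 4 alone at 48 h the VIM difference was 0.60, and 0.41 at the same total, inside the limit, and with those of block 2 alone it was 2.01 and 1.96. From 2 to 16 h in celecoxib VIM was lower by 1.18 (0.70 at the same total), 1 of 6 members lower past the limit beside 19.4% of all genes (3.9% at the same total). KRT10 was higher by 0.97 at the same total, 1 of 6 beside 7.88%, and differed by 0.20 on the spike-in scale, where 0 members were higher past the limit beside 0.528%.

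Against paclitaxel alone for 16 h, the combination had VIM, KRT18, KRT10 and LMNA higher past the limit on the spike-in scale, 4 of 6 beside 62.5% of all genes, and 0 of 6 at the same total, beside 9.57%. KRT18, also counted below against celecoxib, was measured only through celecoxib 2 h and the combination. Its part in these counts therefore lends no support. Within block 1, which holds all cells of paclitaxel 16 h, VIM was higher by 0.61 on the spike-in scale and lower by 0.32 at the same total, and LMNA higher by 1.15 and 0.27. Against celecoxib alone for 16 h, 5 of 6 (all but LMNB2) were higher past the limit on the spike-in scale, beside 66% of all genes, and 0 of 6 at the same total, beside 5.03%. At the same total KRT10 was lower by 0.70, 1 of 6 beside 4.39%, and on the spike-in scale 0 were lower past the limit, beside 0.0414%. Within block 3, which holds all cells of celecoxib 16 h, VIM was higher by 2.24, and by 0.95 at the same total, where the difference over all cells was 0.24. KRT10 was there lower by 0.46 at the same total and higher by 1.35 on the spike-in scale. Comparing the single drugs at 16 h, LMNB1 was lower with celecoxib than with paclitaxel by 0.61 on the spike-in scale (1 of 6 beside 12.5% of all genes) and by 0.56 at the same total (0 of 6 past the limit beside 4.96%). KRT10 and LMNA were higher with celecoxib by 0.89 and 0.78 at the same total (2 of 6 beside 13.1%), and by 0.29 and 0.41 on the spike-in scale (0 of 6 past the limit beside 2.91%).

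Of 30 other intermediate filament genes looked for, 2 were measured, NES (nestin) and NEFH (the heavy neurofilament chain). NEFH was lower than control in all 5 treatments on both scales, by 1.12, 1.13, 0.96, 1.26 and 1.07 on the spike-in scale and by 0.64, 0.69, 0.52, 0.50 and 1.09 at the same total, and it was detected in 97.8% of control cells and 62.7% with the combination. NES differed by between -0.48 and 0.49 on the spike-in scale and between 0.09 and 0.36 at the same total. Of 15 genes listed as filament linkers, among them plakins and desmosomal plaque genes but also others such as PNN, 8 were measured. At the same total only DST (dystonin, a plakin) passed the limit, higher by 0.67 and 0.71 at 2 and 16 h in celecoxib. That was 1 of 8 each, beside 3.31 and 7.37% of all genes, whereas on the spike-in scale DST differed there by 0.38 and -0.11. On the spike-in scale JUP (plakoglobin) was lower by 0.68 at 16 h in paclitaxel (1 of 8 beside 37.3%) and PNN by 0.84 at 16 h in celecoxib (1 of 8 beside 43.9%), while DST, PNN and MACF1, which links microtubules and actin, were higher by 0.87, 0.78 and 0.66 with the combination (3 of 8 beside 30.4%). JUP is named outside the rule, after its values were seen. At the same total MACF1 and PNN differed by between 0.04 and 0.53 and between 0.01 and 0.39, above control in all 5 treatments.

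Of 22 listed genes of proteins that bind lamins at the nuclear envelope 19 were measured. On the spike-in scale 8, 6, 6 and 7 of the 19 were lower than control past the limit in the 4 single-drug conditions, beside 37.3, 26.6, 25.7 and 43.9% of all genes, and with the combination 5 were higher and 1 lower, beside 30.4 and 1.76%. Of the 19, at the same total, 1, 1, 1, 2 and 1 were lower, beside 10, 5.78, 8.12, 7.95 and 5.8%, and 1 was higher (celecoxib 16 h), beside 7.37%. These counts are near the background of all genes. Their medians were -0.51, -0.37, -0.49, -0.49 and 0.28 on the spike-in scale and between -0.18 and 0.03 at the same total. CENPF, a mitotic protein of the nuclear matrix, differed by -0.51, -1.24, -0.59, -1.84 and -0.45 on the spike-in scale and by 0.19, -0.69, -0.10, -0.87 and -0.86 at the same total. BANF1, which ties DNA to the envelope, differed by -1.12, -1.11, -1.02, -1.53 and 0.38 on the spike-in scale and by between -0.48 and -0.15 at the same total. TPR, of the nuclear basket, differed by -0.60, -0.70, -0.35, -1.31 and 0.75 on the spike-in scale and by between -0.11 and 0.19 at the same total.

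All 6 genes of lamin processing, the farnesylation and cleavage that mature prelamin A and the B-type lamins, were measured. On the spike-in scale 5, 4, 3 and 5 of the 6 were lower past the limit in the single-drug conditions, beside 37.3, 26.6, 25.7 and 43.9% of all genes, and 1 (NARF, which binds prelamin A) was higher with the combination, beside 30.4%. At the same total 2, 0, 1, 0 and 0 were lower, beside 10, 5.78, 8.12, 7.95 and 5.8%. RCE1, the protease that trims the farnesylated end, was lower in the single-drug conditions by 1.40, 0.88, 1.29 and 0.86 on the spike-in scale and by 0.96, 0.49, 0.89 and 0.03 at the same total, and with the combination by 0.24 and 0.51. FNTA, the farnesyltransferase alpha subunit, was lower by 0.65 at 16 h in paclitaxel at the same total, and past the limit on the spike-in scale too. ZMPSTE24, which cleaves prelamin A, was higher by 0.82 at 16 h in celecoxib at the same total, the 1 gene of the list higher past the limit there (beside 7.37% of all genes), and lower by 0.17 on the spike-in scale.

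Of 21 kinases and phosphatases of filaments and lamina 19 were measured. Lower past the limit on the spike-in scale were 16, 15, 14, 17 and 6 of the 19, beside 37.3, 26.6, 25.7, 43.9 and 1.76% of all genes, and 4 were higher with the combination, beside 30.4%. With every cell at the same total 9, 9, 8, 8 and 8 were lower, beside 10, 5.78, 8.12, 7.95 and 5.8%, and 1 was higher (combination), beside 5.96%. Their medians were -1.05, -0.96, -0.98, -1.57 and 0.13 on the spike-in scale and -0.57, -0.55, -0.52, -0.28 and -0.37 at the same total. CCNB1, the cyclin of the CDK1 kinase, was lower by 1.28, 1.94, 1.82, 2.53 and 2.41 at the same total and by 2.01, 2.51, 2.32, 3.60 and 1.95 on the spike-in scale. AURKB, which phosphorylates vimentin in mitosis, was lower by 1.68, 1.87, 2.00, 3.22 and 2.32 at the same total and by 2.26, 2.43, 2.50, 4.00 and 2.15 on the spike-in scale, and was detected in 87.0% of control cells and 39.3% after 16 h in celecoxib. The phosphatase subunit PPP1CA was lower by 0.64, 0.34, 0.59, 0.08 and 0.31 at the same total, and differed by -1.41, -0.96, -1.15, -1.43 and 0.37 on the spike-in scale. PPP2CA, another phosphatase subunit, was lower by 1.19, 0.65, 0.53, 0.24 and 0.31 at the same total, and differed by -1.92, -1.25, -1.07, -1.57 and 0.36 on the spike-in scale. The kinases ROCK1, ROCK2 and PAK2 are named outside the rule, after their values were seen. They were above control in every treatment at the same total. ROCK1 was higher by 0.39, 0.19, 0.19, 0.15 and 0.32 and ROCK2 by 0.46, 0.42, 0.42, 0.17 and 0.64. PAK2 was higher by 0.06, 0.13, 0.21, 0.14 and 0.38. On the spike-in scale these kinases differed by -0.66 to 0.13 with the single drugs and by 0.75 to 1.15 with the combination.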

How the data were processed

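RNA of single A2780 cells was measured. The authors removed adapters (Trim Galore), aligned reads with Bowtie2 to the hg38 transcripts of GENCODE version 28 plus 3 spike-in RNAs, and took TPM from RSEM 1.3.0. Each cell was scaled by them to its most abundant spike-in, cells poor in housekeeping genes were dropped, and a gene stayed if over 30% of cells in any condition had it. The deposited values are E-values on a log2 scale, log2(N/10 + 1), for 9664 genes and 338 cells. The pseudocount was 10 normalized TPM.

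N was recovered from the E-values, and each cell was also set to the median total. Differences of mean E-values past log2 of 1.5 were counted among 9655 genes detected in over 30% of cells of a condition. With 1 sample per condition no test was run. Intervals of shares are exact (Clopper-Pearson, 95%). Reads per cell are unknown and, without counts, doublets were not called. The genes named are all members, up to 3 of the highest genes and the largest difference of each list, and the 3 genes most like each member, save some of these that are not reported here. Members and lists were chosen with earlier results of these data known. KRT8 was not analysed here, and the planned KRT8 to KRT18 ratio could not be computed. Coordinates are from GENCODE version 44. Alternatives were the same total, a pseudocount of 1, linear means, medians, each number block, wells noted as debris left out, and detection limits of none or 50%. On simulated data with 200 genes changed 4-fold the steps were tested. The scripts used pandas 2.3.3 with numpy 2.4.6, matplotlib 3.10.9, scipy 1.17.1 and Python 3.11.15, and the S and G2/M genes were those of Seurat 5.3.0.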

Additional observations from a re-analysis of the deposited data

Results flagged for a closer look

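VIM, LMNA and KRT10 had opposite signs at the 2 times of a drug at the same total per cell. VIM differed from control by -0.86 at 16 h and by 0.20 at 48 h in paclitaxel. On the spike-in scale the values were -1.49 and -0.31, and at the same total the 48 h value was 1.10 for the cells of block 2 and -0.45 for those of block 4. LMNA differed by -0.49 at 16 h and by 0.28 at 48 h in paclitaxel (-1.03 and -0.18 on the spike-in scale). KRT10 differed by -0.50 at 2 h and by 0.46 at 16 h in celecoxib (-0.98 and -0.78 on the spike-in scale). With 1 sample per condition the differences between the times were not tested.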

How the results depend on the processing

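The number of members lower than control past the limit at 16 h in paclitaxel was 3, and was 1 at the same total, 4 with a pseudocount of 1 and 5 with linear means. At 48 h it was 1, and was 3 with a pseudocount of 1 or with linear means and 2 with medians or with block 4 alone, and the number higher was 1 with linear means. At 2 h in celecoxib the number lower was 2, and was 0 at the same total and 3 with a pseudocount of 1 or with linear means. The number higher there was 1 with linear means. At 16 h in celecoxib the number lower was 5, and was 1 at the same total, 6 with linear means and 4 with medians. With the combination the number higher was 0, and was 1 with a pseudocount of 1 or block 3 alone and 3 with linear means, and the number lower was 0, and was 1 at the same total, with linear means, with medians or with block 1 alone and 2 with a pseudocount of 1. After 16 h in celecoxib KRT10 and LMNA turned to 0.46 and 0.28 at the same total. Of 151 values of member differences under an alternative, 102 kept their sign and their side of the limit and 34 kept their sign but crossed the limit. The sign changed in 15, of which 8 were at the same total, and 13 of the 15 were inside the limit under both settings. At 48 h in paclitaxel KRT18 was at 1.46 with linear means and -0.07 without its highest cell, an alternative chosen after seeing the data, as were the single blocks for VIM between the paclitaxel times. With a pseudocount of 1 the median log2 ratio of LMNB1 to LMNA was -2.22 in control, -0.92 at 16 h and -4.12 at 48 h in paclitaxel, -4.32 and -4.22 at 2 and 16 h in celecoxib and -5.39 with the combination. LMNB1 was at 0 in 24 of 46 control cells and in 50 of 61 after 16 h in celecoxib. In a cell with LMNB1 at 0 and LMNA detected, the ratio holds only LMNA and the pseudocount, and falls as the pseudocount falls. The cause of the other shifts was not tested. The KRT8 to KRT18 ratio gave no value under any setting. No paired analysis was possible because each condition is 1 sample and no test was made. The unknown depth and the many zeros of LMNB1, LMNB2 and KRT18 limit how small a difference can be seen.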

Other observations

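Of 14 epithelial genes looked for 2 were measured, and of 12 mesenchymal genes 3 were (S100A4, ZEB1 and SPARC). These few genes did not all move the same way. S100A4, a calcium-binding protein of mesenchymal and motile cells, had a control mean E-value of 6.86 and was higher than control at the same total by 0.75 and 1.23 at 16 and 48 h in paclitaxel, by 1.20 and 0.12 at 2 and 16 h in celecoxib and by 0.54 with the combination, while on the spike-in scale it differed by -0.04, 0.61, 0.64, -1.24 and 1.22. CLDN7, a tight junction claudin, was detected in 21.7% of control cells and in between 46.4 and 55.6% of treated cells, and was higher than control on both scales, by 0.30, 0.80, 0.71, 0.84 and 0.48 at the same total and by 0.17, 0.69, 0.67, 0.43 and 0.92 on the spike-in scale. CLDN7 was measured only through treated conditions, since its control share was below the 30% a gene needed. That filter favours a higher level in treated cells, so the direction lends no support of its own. OCLN, also of tight junctions, was detected in 32.6% of control cells and in 67.2% after 16 h in celecoxib. Its mean there differed from control by only -0.12 on the spike-in scale and 0.13 at the same total. In all 5 treatments it differed by 0.02, -0.04, 0.20, -0.12 and 0.90 on the spike-in scale and by 0.13, 0.08, 0.25, 0.13 and 0.46 at the same total. Only the combination on the spike-in scale was past the limit, where 30.4% of all genes were higher. ZEB1, a repressor of epithelial genes, was higher by 0.59 after 16 h in celecoxib at the same total but lower by 0.20 on the spike-in scale, where it was at -0.65 at 48 h in paclitaxel and 0.82 with the combination. SPARC, a matrix protein, was detected in between 12.5 and 39.3% of cells and was inside the limit in all 5 treatments on both scales. It was measured only through celecoxib 16 h, at 39.3%, since its other shares were below the 30% a gene needed. Of the fibroblast genes COL3A1, a fibrillar collagen, was at -0.78 and -0.98 at 16 h in paclitaxel and of celecoxib on the spike-in scale and at -0.34 and -0.41 at the same total, and COL1A2 stayed within the limit. THY1, a surface protein of fibroblasts, was higher by 0.60 after 16 h in celecoxib at the same total but at -0.18 on the spike-in scale, and at 16 h in paclitaxel it was at -0.89 on the spike-in scale and -0.46 at the same total. LUM, a matrix proteoglycan, was detected in between 10.2 and 29.5% of cells, below the share needed to be counted among all genes tested.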
